A study of Zea mays with 4 samples.

Results

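The table of whole-seedling counts names most of its features by the newer Zm00001d IDs, but 114 of its 22525 features carry IDs that begin with GRMZM. The prefix alone decides which IDs belong to the set, although earlier results of these data were known when the set was proposed. All 114 begin with GRMZM5G and 0 begin with GRMZM2G, so the prefixes could not be set against each other. The libraries were made from V3-stage maize (Zea mays) seedlings, ground whole with their roots, 2 libraries for each of 2 genotypes. One genotype was an F1 cross of A188 with B73, given the further name HiII in the labels, and it was set against inbred B73. The labels name no treatment, and all plants shared a greenhouse with a 14 h day and a 10 h night. Each genotype has a library named RPI10 and a library named RPI11. The labels do not say what these codes mark, nor whether the libraries come from separate plants or pools, so p-values measure the spread between these libraries only, which may be technical.

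Gene models of maize were first named with GRMZM IDs, and the Zm00001d names replaced them for nuclear genes when a later B73 assembly was annotated. A table that mixes both styles therefore holds features carried over from an older naming round. B73 is the line from which the maize reference genome was built, and HiII is a germplasm built from A188 and B73 that is widely used for maize transformation. An F1 plant holds 1 nuclear genome copy from each parent. None of the 114 IDs was found among the symbols, synonyms or locus tags of the RefSeq gene table used here (assembly Zm-B73-REFERENCE-NAM-5.0), although that table lists 1215 other GRMZM5G names and 17572 GRMZM2G names. For this reason no gene name, function, position or sequence is given to any of them, and they are described by their counts.

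The libraries held 1341976 (RPI10) and 883812 (RPI11) counts in the hybrid, and 275271 and 403858 counts in B73, so each hybrid library was deeper than each B73 library. CAB1, a chlorophyll-binding protein of the light-harvesting antenna, had 1951 and 982 counts in the hybrid and 146 and 200 in B73, so RNA of green tissue was present in each library. In TMM-scaled CPM, described below, it had 1909 and 1398 in the hybrid, and 406 and 391 in B73. It was thus higher in both hybrid libraries, and whether the amount of green tissue differed between genotypes was not tested. In bulk seedlings fewer cells of a type and less RNA per cell cannot be told apart.

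The GRMZM IDs took a larger share of the counts in the hybrid than in B73. They held 101737 and 76204 counts in the hybrid libraries, and 13947 and 23321 counts in the B73 libraries. As a percentage of all counts this was 7.58% (RPI10, Wilson 95% interval 7.54 to 7.63) and 8.62% (RPI11, 8.56 to 8.68) in the hybrid, against 5.07% (RPI10, 4.99 to 5.15) and 5.77% (RPI11, 5.70 to 5.85) in B73. These intervals cover counting error only and not the spread between libraries. The files do not show whether molecular identifiers were collapsed, and if they were not, the intervals are too narrow even for counting error. Both hybrid libraries lay above both B73 libraries. The mean share was 8.10% ± 0.736 in the hybrid and 5.42% ± 0.501 in B73 (SD, n = 2 each), a difference of 2.68 percentage points. Within RPI10 the hybrid share was 1.496 times that of B73, and within RPI11 it was 1.493 times. With 2 libraries against 2, an exact permutation test over the 6 possible splits cannot go below a two-sided p of 0.33, and no p is given for the summed IDs.

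**Figure D1:**
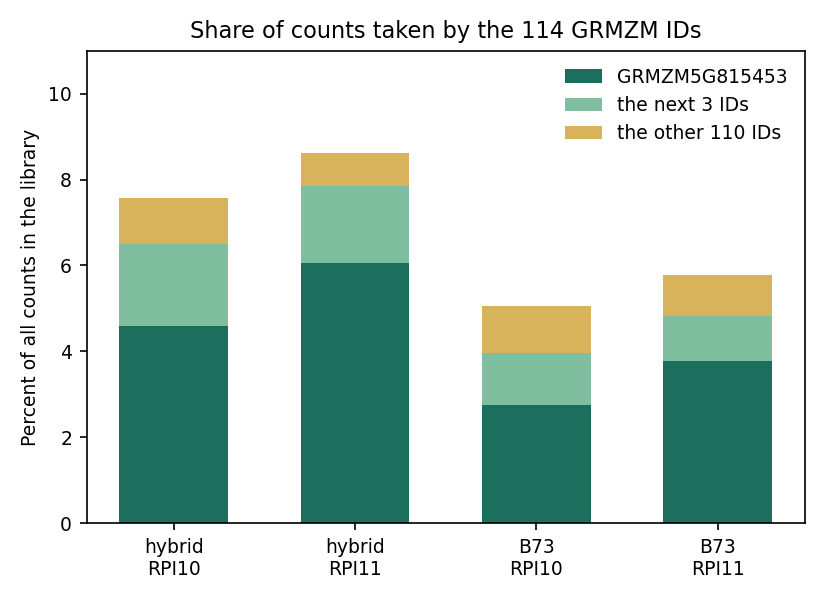
Percent of all counts in each library that fell on GRMZM IDs, stacked as GRMZM5G815453, the next 3 most abundant IDs and the other 110 IDs. The hybrid bars reach 7.58% and 8.62% and the B73 bars 5.07% and 5.77%, and GRMZM5G815453 makes up the largest block in each bar.

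That difference came from few IDs. GRMZM5G815453 alone held 60.5% and 70.4% of the GRMZM counts in the hybrid libraries, and 54.5% and 65.3% in the B73 libraries. Together with GRMZM5G800101, GRMZM5G818111 and GRMZM5G800980 it held 85.8% and 91.0% in the hybrid, and 78.2% and 83.3% in B73. The 4 were among the 20 most abundant IDs of the whole table in every library. GRMZM5G815453 ranked 5th in both hybrid libraries, and 7th (RPI10) and 5th (RPI11) in the B73 libraries. Without GRMZM5G815453 the share was 2.77% ± 0.309 in the hybrid and 2.16% ± 0.213 in B73 (SD, n = 2 each). The 110 IDs below the first 4 summed to 1.08% and 0.777% in the hybrid libraries, and 1.10% and 0.962% in the B73 libraries, so the genotypes overlapped. The order of IDs is an order of counts: transcript lengths of these IDs were not used here, and in this protocol, a form of CEL-Seq2, reads come from near the 3′ end.

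GRMZM5G815453 had 61592 and 53629 counts in the hybrid libraries, and 7598 and 15224 counts in the B73 libraries. Of all counts in a library it took 4.59% (RPI10) and 6.07% (RPI11) in the hybrid, against 2.76% and 3.77% in B73. Its share was thus higher in both hybrid libraries than in both B73 libraries, and higher with RPI11 than with RPI10 in either genotype. Counts were scaled by TMM (a trimmed mean of M-values, which sets libraries level on the bulk of IDs) and tested with edgeR's quasi-likelihood test, with p-values adjusted by the Benjamini-Hochberg method over all tested IDs and a threshold of 0.05. On this scale GRMZM5G815453 had 68311 ± 11369 CPM (counts scaled to a common library size) in the hybrid and 25462 ± 6103 CPM in B73 (SD, n = 2), a log2 fold change of 1.42 (SE 0.39, edgeR adjusted p = 0.00940). The call rested on the scaling and on single libraries: scaled by library totals alone the log2 fold change was 0.71 (edgeR adjusted p = 0.120), and it was not past the threshold without the RPI10 library of B73 (adjusted p = 0.132) or without the RPI11 library of the hybrid (adjusted p = 0.114). Here and below, a fit with a library left out has 1 library in that genotype, which is assumed to vary like the other genotype, whose libraries alone give the spread. Its adjusted p in the alternatives, the block aside, lay between 0.000459 and 0.132.

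The next 3 IDs by abundance behaved similarly on the TMM scale. GRMZM5G800101 had 11010 and 5645 counts in the hybrid, and 1340 and 1757 in B73 (log2 fold change 1.39, SE 0.38, edgeR adjusted p = 0.00895). GRMZM5G818111 had 6303 and 5430 counts in the hybrid, and 1002 and 1334 in B73 (1.36, SE 0.37, edgeR adjusted p = 0.00932). GRMZM5G800980 had 8338 and 4637 counts in the hybrid, and 969 and 1120 in B73 (1.59, SE 0.38, edgeR adjusted p = 0.00428). For each of these 3 IDs both hybrid libraries also lay above both B73 libraries as a percentage of all counts. With library totals their log2 fold changes were 0.66, 0.64 and 0.86, with edgeR adjusted p of 0.140, 0.154 and 0.0598, so none of the 3 was past the threshold on that scale. Without the RPI11 library of B73 the adjusted p were 0.106, 0.110 and 0.0790, and without its RPI10 library they were 0.0772, 0.0862 and 0.0345. Without the hybrid's RPI10 library they were 0.0524, 0.0163 and 0.0213. In the alternatives, the block aside, the adjusted p lay between 0.000329 and 0.140, between 0.000381 and 0.154, and between 3.86e-05 and 0.0790.

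**Figure D2:**
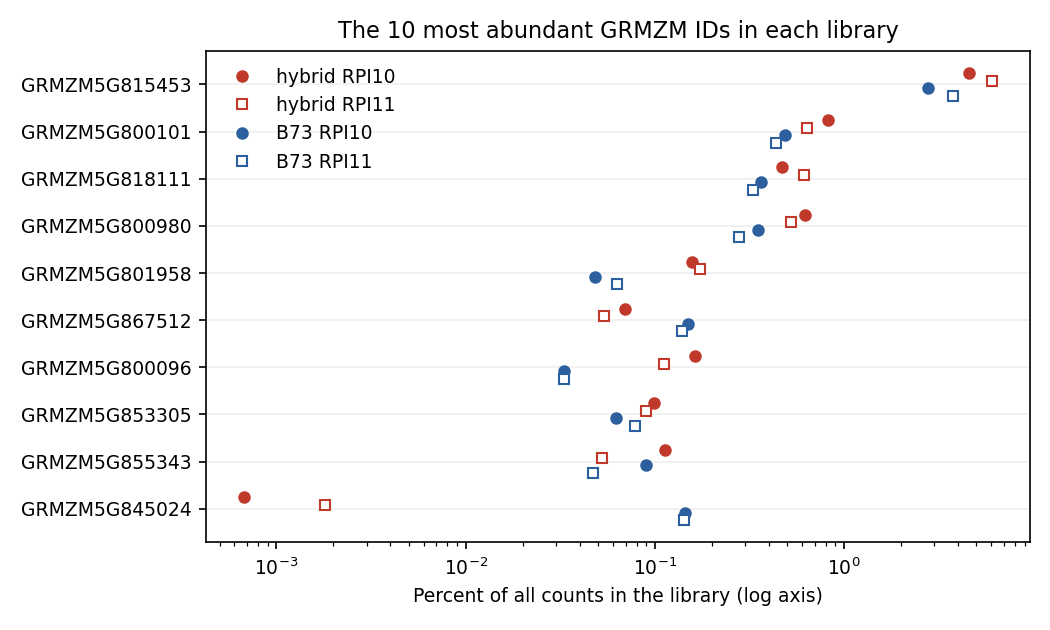
Percent of all counts in each library (log axis) for the 10 GRMZM IDs with the highest mean share; red symbols are hybrid libraries, blue symbols B73 libraries, circles RPI10 and open squares RPI11. GRMZM5G845024 and GRMZM5G867512 lie lower in the hybrid, GRMZM5G855343 overlaps between genotypes, and the other 7 lie higher in both hybrid libraries.

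Of the 114 IDs, 49 had enough counts to be tested and 65 did not. The 65 had at most 13 counts in any library, and 43 of them at most 3 in every library. In sum they took 0.00939% and 0.00984% of the counts in the hybrid libraries, and 0.0447% and 0.0379% in the B73 libraries. The filter can keep an ID through the genotype where it is high, so the counts below describe the 49 and not all members. Among the 49, 13 were higher in the hybrid, against 25.3% of the 3282 tested IDs of the table, and 13 were lower, against 25.4%. The 13 make up 26.5% of the tested GRMZM IDs in either direction, which is near the background. The median log2 fold change was -0.50 over the 49 and -0.04 over all tested IDs. Hybrid and B73 libraries did not overlap for 13 of the 49 with the hybrid higher (36.1% over all tested IDs) and for 25 with the hybrid lower (40.2%). All 26 calls were among these 38.

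The scaling set the balance of these calls. Scaling by library totals alone moved the median log2 fold change of all tested IDs by -0.72. On that scale 4 of the 49 were higher (14.7% over all tested IDs) and 26 were lower (41.3%). The 4 were all among the 13 higher calls, and the other 9 kept a positive sign without passing the threshold. The 13 lower calls were also lower with library totals. Relative to the median of all tested IDs, the median of the 49 was -0.46 with TMM and -0.47 with library totals. It was -0.09 over the 34 GRMZM IDs that reached 10 counts in all 4 libraries, a filter that removes IDs near 0 in either genotype. Of the 13 higher and 13 lower calls, 6 and 6 remained without the RPI11 library of B73, 8 and 10 without its RPI10 library, 9 and 10 without the hybrid's RPI10 library, and 12 and 12 without its RPI11 library. DESeq2, another count test, which called 13.3% of its tested IDs higher and 4.93% lower, kept all 13 higher calls and 4 of the 13 lower ones.

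**Figure D3:**
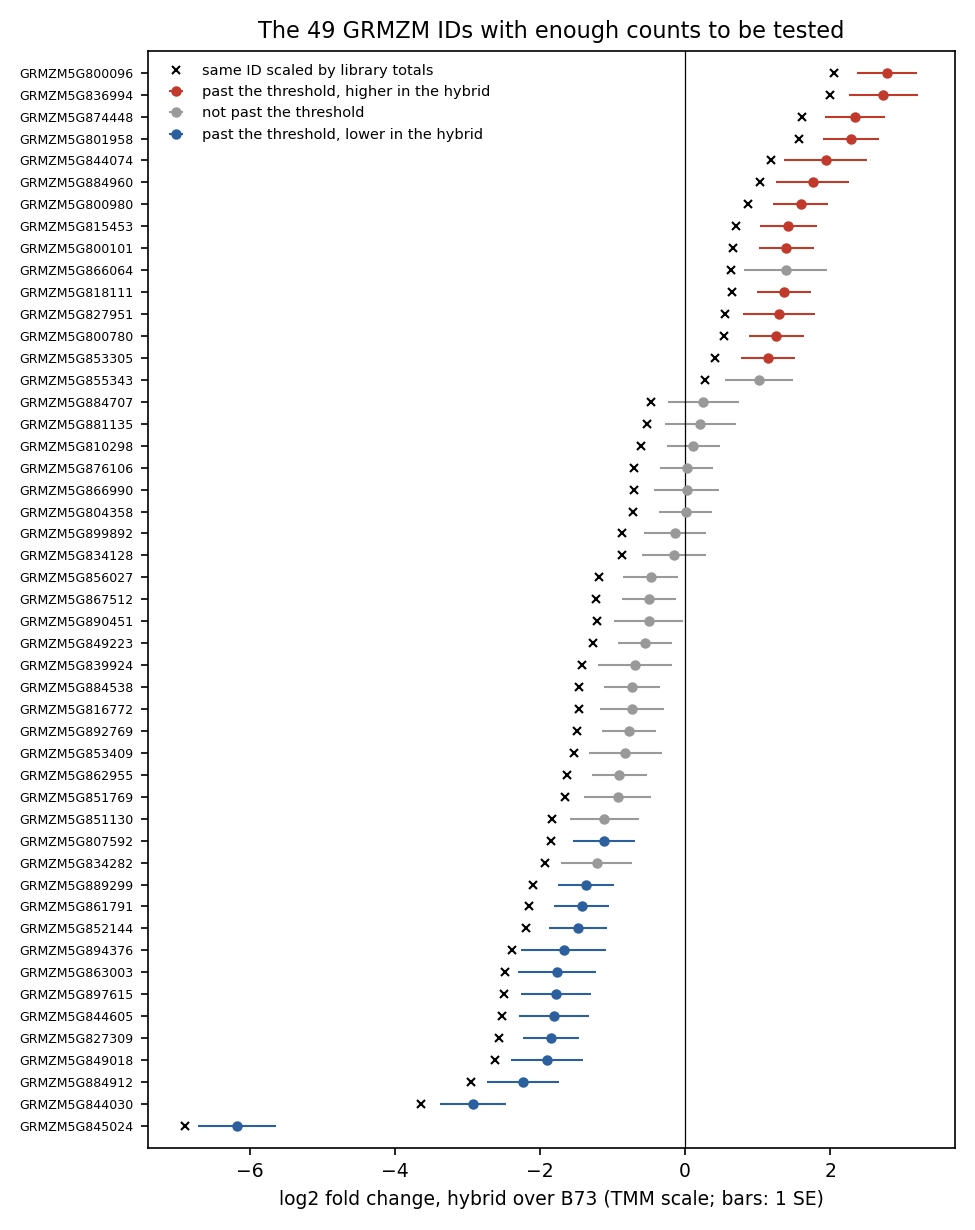
Log2 fold change of hybrid over B73 for the 49 tested GRMZM IDs on the TMM scale (points, bars 1 SE), coloured by call, with the same ID scaled by library totals as a cross. Of the 49, 13 lie past the threshold on the right, 13 on the left, and GRMZM5G845024 stands apart at -6.18.

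The IDs higher in the hybrid spanned log2 fold changes from 1.14 to 2.78 on the TMM scale, with a median of 1.59. The 4 that were also higher with library totals were GRMZM5G800096, GRMZM5G836994, GRMZM5G874448 and GRMZM5G801958. GRMZM5G800096 had 2188 and 986 counts in the hybrid, and 91 and 134 in B73. This is 1772 ± 521 CPM in the hybrid and 258 ± 6.24 CPM in B73 (SD, n = 2; log2 fold change 2.78, SE 0.41, edgeR adjusted p = 0.000300). GRMZM5G836994 had 1007 and 380 counts in the hybrid, and 55 and 40 in B73 (2.74, SE 0.48, edgeR adjusted p = 0.000748). GRMZM5G874448 had 626 and 287 counts in the hybrid, and 41 and 45 in B73 (2.34, SE 0.41, edgeR adjusted p = 0.000798). GRMZM5G801958 had 2118 and 1525 counts in the hybrid, and 132 and 256 in B73 (2.29, SE 0.39, edgeR adjusted p = 0.000666). For all 4 the hybrid libraries lay above the B73 libraries on either scale, and each was past the threshold in the 4 fits with a library left out. With library totals their log2 fold changes were 2.05, 2.00, 1.61 and 1.57.

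Other higher IDs were less stable. GRMZM5G844074 had 1700 and 336 counts in the hybrid, and 139 and 90 in B73 (log2 fold change 1.94, SE 0.57, edgeR adjusted p = 0.0136). Its share of all counts overlapped between genotypes, at 0.127% and 0.0380% in the hybrid and 0.0505% and 0.0223% in B73. Its adjusted p was 0.188 without the hybrid's RPI10 library and 0.0754 without the RPI11 library of B73. GRMZM5G884960 had 109 and 34 counts in the hybrid, and 9 and 11 in B73 (log2 fold change 1.76, SE 0.50, edgeR adjusted p = 0.0110), and its adjusted p was 0.0882 without the RPI10 library of the hybrid. GRMZM5G853305 had 1326 and 793 counts in the hybrid, and 172 and 317 in B73 (1.14, SE 0.38, edgeR adjusted p = 0.0234). Without the RPI10 or the RPI11 library of B73 its adjusted p was 0.251 or 0.104. The last higher call, GRMZM5G800780, with 202 and 139 counts in the hybrid and 26 and 47 in B73, lay outside the rule for named IDs and is given to complete the list of 13 with GRMZM5G827951, described with the codes below.

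GRMZM5G845024 showed the largest difference of the 49. It had 9 and 16 counts in the hybrid libraries, and 398 and 578 counts in the B73 libraries, although the hybrid libraries were the deeper ones. On the TMM scale this was 15.8 ± 9.88 CPM in the hybrid and 1119 ± 16.1 CPM in B73 (SD, n = 2), a log2 fold change of -6.18 (SE 0.54, edgeR adjusted p = 2.12e-05), or 72.5-fold lower in the hybrid. The B73 libraries were close to each other, at 0.145% and 0.143% of all counts, and both hybrid libraries were at or under 0.00181%. With library totals the log2 fold change was -6.90, and the ID was past the threshold in the 4 fits with a library left out.

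The other lower IDs were less abundant, with log2 fold changes down to -2.93. GRMZM5G844030 had 9 and 8 counts in the hybrid, and 24 and 44 in B73 (log2 fold change -2.93, SE 0.45, edgeR adjusted p = 0.000360). GRMZM5G827309 had 73 and 71 counts in the hybrid, and 119 and 148 in B73 (-1.85, SE 0.39, edgeR adjusted p = 0.00210). Both were past the threshold in the 4 fits with a library left out. The lower calls GRMZM5G861791, GRMZM5G889299 and GRMZM5G807592 lay outside the rule for named IDs and complete the list of 13. GRMZM5G861791 had 192 and 155 counts in the hybrid, and 185 and 299 in B73 (-1.43, SE 0.37, edgeR adjusted p = 0.00732). The log2 fold changes of GRMZM5G889299 and GRMZM5G807592 were -1.37 and -1.12 (edgeR adjusted p = 0.0104 and 0.0444). The remaining 7 named lower IDs had at most 44 counts in any library. Among them, GRMZM5G884912 had 7 and 4 counts in the hybrid, and 9 and 18 in B73 (-2.24, SE 0.50, edgeR adjusted p = 0.00297), with an adjusted p of 0.0748 without the RPI11 library of B73. GRMZM5G852144 had 31 and 17 counts in the hybrid, and 24 and 44 in B73 (-1.48, SE 0.40, edgeR adjusted p = 0.00896), with an adjusted p of 0.0953 without that library. GRMZM5G849018, GRMZM5G844605 and GRMZM5G897615 had 3 to 8 counts in each hybrid library and 8 to 15 in each B73 library, and their log2 fold changes were -1.90, -1.81 and -1.78. Their calls were lost without the RPI11 library of B73 (adjusted p = 0.0736, 0.0960 and 0.171), and those of GRMZM5G849018 and GRMZM5G844605 also without its RPI10 library (0.0635 and 0.109). GRMZM5G863003 had 7 and 17 counts in the hybrid, and 17 and 27 in B73 (-1.77, SE 0.54, edgeR adjusted p = 0.0163). GRMZM5G894376 had 6 and 18 counts in the hybrid, and 13 and 29 in B73 (-1.67, SE 0.59, edgeR adjusted p = 0.0305). Both had hybrid counts below B73 counts of the same code and lost their call without the RPI10 library of the hybrid (adjusted p = 0.103 and 0.179), and GRMZM5G894376 also without the RPI11 library of B73 (0.134).

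The remaining 23 tested IDs were not past the threshold, with log2 fold changes from -1.22 to 1.38. The most abundant of them, GRMZM5G867512, had 930 and 475 counts in the hybrid, and 411 and 562 in B73. On the TMM scale it averaged 793 ± 165 CPM in the hybrid and 1122 ± 31.6 CPM in B73 (SD, n = 2; log2 fold change -0.50, SE 0.37, edgeR adjusted p = 0.281). Both hybrid libraries were nonetheless below both B73 libraries, and with library totals the log2 fold change was -1.23 (edgeR adjusted p = 0.0123, with a range of 0.0123 to 0.815 over the alternatives without a block). Another 3 IDs, chosen after their values were seen, had nearly the same counts as each other. GRMZM5G804358 had 135 and 84 counts in the hybrid, and 43 and 67 in B73. GRMZM5G876106 had 136 and 78 in the hybrid, and 46 and 58 in B73, and GRMZM5G810298 had 138 and 82 in the hybrid, and 43 and 58 in B73. Their log2 fold changes were 0.00, 0.02 and 0.11 on the TMM scale, and -0.72, -0.71 and -0.61 with library totals. None of the 3 was past the threshold on either scale. As a percentage of all counts, both hybrid libraries lay below both B73 libraries for each of them. Among the 55 GRMZM IDs with 20 or more counts in all, GRMZM5G838963 and GRMZM5G859187 had identical counts, 1 and 5 in the hybrid and 10 and 6 in B73. Whether such IDs share reads of near-identical sequences was not tested.

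By the sign of the log2 fold change, the more abundant GRMZM IDs were mostly higher in the hybrid and the scarcer ones mostly lower. By calls, 10 of the 15 most abundant GRMZM IDs were past the threshold and higher, 3 were past it and lower, and 2 were not past it. The median log2 fold change of the 15 was 1.39. Of the other 34 tested IDs, 3 were called higher, 10 were called lower and 21 were not past the threshold, with a median of -0.73 over the 34. Over all 3282 tested IDs 25.3% were higher and 25.4% lower, so the 10 lower calls among the 34 were near the background. With library totals these medians were 0.66 and -1.46. Several of the 34 passed the filter on low counts mainly through B73, where they were higher, so their numbers describe the filtered IDs only. With at least 10 counts required in every library, 14 of the 15 were left, with 9 higher, 2 lower and a median of 1.21. Of the 34, 20 were left, with 1 higher, 5 lower and a median of -0.52. Under this filter 220 of all 970 tested IDs were higher and 181 lower, so the lower calls among the 20 were also not far from the background. The division at 15 was chosen after the values were seen. Across the 49 IDs the Spearman correlation of log2 fold change with mean CPM was 0.60, and across all 3282 tested IDs it was 0.43. The IDs share the same 4 libraries and are not independent, and both quantities come from the same counts, so these values are descriptions.

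**Figure D4:**
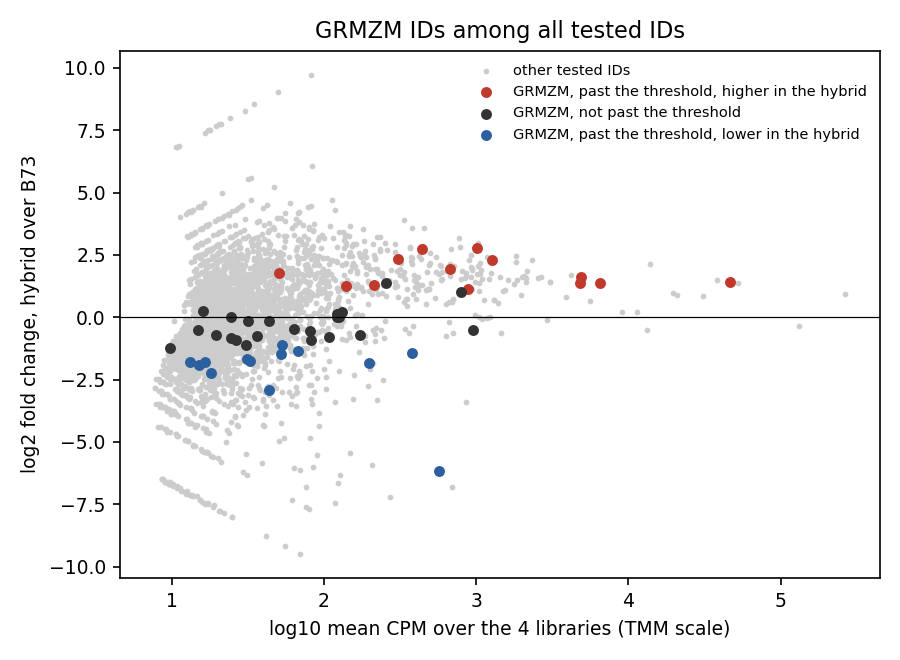
Log2 fold change of hybrid over B73 against log10 mean CPM (TMM scale) for the 49 tested GRMZM IDs (large points, coloured by call) and all other tested IDs (grey). The most abundant GRMZM IDs lie above 0 and GRMZM5G845024 lies at -6.18, while most of the scarce ones lie below 0.

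At equal depth more GRMZM IDs were seen in B73 than in the hybrid. In the libraries as deposited at least 1 count was found for 91 (RPI10) and 83 (RPI11) of the 114 IDs in the hybrid (79.8% and 72.8%). In each of the B73 libraries, which were the shallower ones, it was found for 96 (84.2%). Over all IDs of the table the shares were 73.6% and 68.9% in the hybrid, and 60.5% and 69.3% in B73, so there the genotypes overlapped. With a minimum of 5 counts the genotypes overlapped, at 61 and 51 IDs in the hybrid libraries, and 54 and 58 in the B73 libraries. With every library drawn at random to 275271 counts, 62 and 63 IDs were seen in the hybrid (54.4% and 55.3%), and 96 and 94 in B73 (84.2% and 82.5%). Over all IDs of the table the same draw gave 42.4% and 44.6% in the hybrid, and 60.5% and 60.8% in B73, so the table as a whole differed in the same direction. In all, 67 of the 114 IDs were counted in all 4 libraries. Only 13 IDs had no count in either hybrid library and 8 had none in either B73 library, and none of these 21 had more than 6 counts in all. An ID at 0 is read against a floor of 3 counts per library, so presence in a single genotype cannot be shown for them. The numbers at a minimum of 5 counts, and those of 67, 13 and 8 IDs, have no share over all IDs beside them and describe the GRMZM IDs only.

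The RPI codes also differed for some GRMZM IDs. With genotype as a term in the edgeR model, 6 of the 49 tested IDs were higher in RPI10, against 2.13% of all tested IDs, and 1 was lower, against 1.13%. That model leaves few libraries to estimate the spread of each ID, so its p-values rest largely on a spread estimated across IDs. The 6 were GRMZM5G866064, GRMZM5G844074, GRMZM5G827951, GRMZM5G881135, GRMZM5G855343 and GRMZM5G836994, and the 1 was GRMZM5G815453. GRMZM5G866064 had 560 counts in RPI10 and 129 in RPI11 in the hybrid, and 77 and 36 in B73. Its log2 fold change of RPI10 over RPI11 was 1.59 (SE 0.24, edgeR adjusted p = 0.000360), and within the genotypes the log2 ratio of CPM + 1 was 1.57 in the hybrid and 1.59 in B73. GRMZM5G844074 was 2.84-fold higher in RPI10 (edgeR adjusted p = 0.000276). GRMZM5G827951 had 418 and 137 counts in the hybrid, and 64 and 37 in B73, with a log2 fold change between codes of 1.16 (SE 0.24, edgeR adjusted p = 0.00667). Its log2 fold change between genotypes was 1.29 (SE 0.50, edgeR adjusted p = 0.0459), just past the threshold, and was lost when the hybrid's RPI10 library (adjusted p = 0.276) or the RPI11 library of B73 (0.337) was left out. GRMZM5G881135, GRMZM5G855343 and GRMZM5G836994 had log2 fold changes between codes of 1.05, 1.04 and 0.90 (edgeR adjusted p = 0.0351, 0.00382 and 0.0322). GRMZM5G815453 went the other way, at -0.42 (SE 0.11, edgeR adjusted p = 0.0362). Each of the 7 had the same sign in both genotypes. DESeq2 gave an adjusted p for 34 of the GRMZM IDs in this comparison and called 3 of them higher in RPI10 (2.06% over all its tested IDs) and 0 lower (1.07%), with 7 at an unadjusted p under 0.05.

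GRMZM5G866064 and GRMZM5G855343 were not past the threshold between genotypes, with log2 fold changes of 1.38 and 1.02 (edgeR adjusted p = 0.0625 and 0.0882), and their hybrid and B73 libraries overlapped. Within each code the hybrid was higher for both: the log2 ratio of CPM + 1 was 1.35 (RPI10) and 1.37 (RPI11) for GRMZM5G866064, and 1.11 and 0.82 for GRMZM5G855343. GRMZM5G855343 had 1515 and 462 counts in the hybrid, and 247 and 190 in B73. Over the 49 IDs the median log2 fold change between codes was 0.24, against 0.00 over all tested IDs. Since a code has a single library in each genotype, a difference between plants and a difference between library preparations cannot be told apart.

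**Figure D5:**
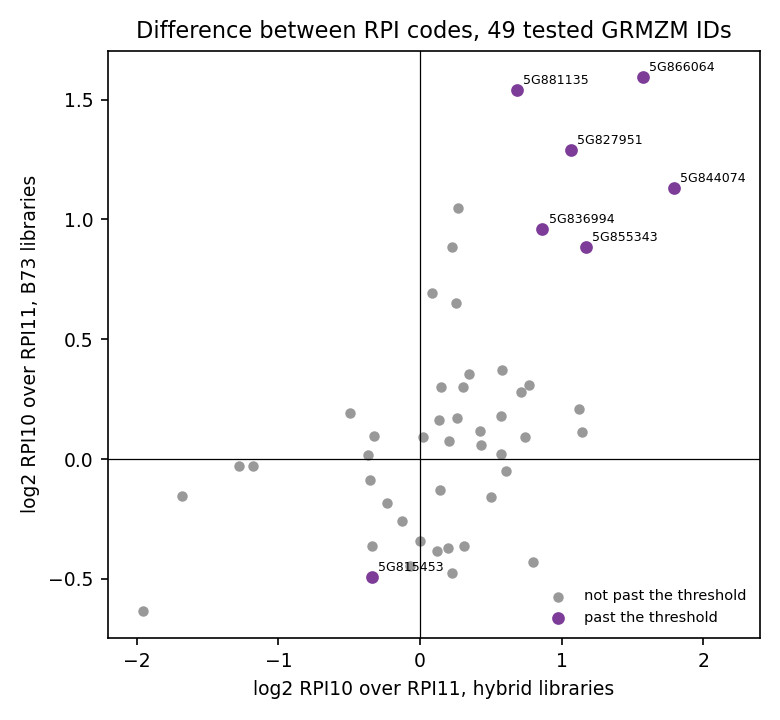
Log2 ratio of RPI10 over RPI11 (CPM + 1, TMM scale) in the hybrid libraries against the same ratio in the B73 libraries for the 49 tested GRMZM IDs; the 7 past the threshold in the model with genotype as a term are purple and labelled without the shared prefix GRMZM. Of the 7, 6 lie in the upper right and GRMZM5G815453 in the lower left, and 38 of the 49 have the same sign in both genotypes.

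Features of the chloroplast genome, named by symbol, offered a set to compare with. That genome encodes core subunits of the photosystems, the ATP synthase and the NDH complex, and its transcripts are abundant in green tissue, where a poly(A) tail marks plastid RNA for decay rather than for translation. Of 77 plastid gene symbols, 25 matched an ID of the table by name, and of 26 mitochondrial gene symbols 0 did. The GRMZM IDs have no gene names here, so whether some of them are also plastid or mitochondrial genes was not tested. The sets compared here may therefore not be distinct in kind. The 25 plastid symbols took 8.88% and 4.48% of the counts in the hybrid libraries, and 6.37% and 3.58% in the B73 libraries. Their share was thus larger with RPI10 in either genotype, whereas the share of the GRMZM IDs was larger with RPI11 in either genotype. That order of the GRMZM share rested on GRMZM5G815453: without it the GRMZM share was 2.99% (RPI10) and 2.55% (RPI11) in the hybrid, and 2.31% and 2.00% in B73, larger with RPI10 as for the plastid symbols. Between genotypes 16 of the 25 plastid symbols were higher in the hybrid and 0 lower, at a median log2 fold change of 1.58. Over all tested IDs 25.3% were higher and 25.4% lower, and of the tested GRMZM IDs 26.5% in either direction. Between codes 8 of the 25 were higher in RPI10 and 0 lower, at a median of 0.52, against 2.13% and 1.13% over all tested IDs. No test of the difference between the GRMZM IDs and the plastid symbols was run.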

How the data were processed

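Counts were available for 4 libraries. The table deposited by the authors gives raw counts as whole numbers, with 1 row per ID and 1 column per library. Per the submitters' processing notes, CASAVA 1.4, HISAT2, UMI-tools and the build B73 RefGen_v4 were used. The counting step, the annotation and the collapsing of molecular identifiers are not given in the sources used here. Library totals ran from 275271 to 1341976 counts, and 1 count equalled between 0.745 and 3.63 CPM of a library total.

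All IDs were tested together with edgeR 4.0.16 in R 4.3.3 (quasi-likelihood test, filterByExpr with a minimum count of 10, TMM factors of 0.778 ± 0.0235 in the hybrid and 1.29 ± 0.0278 in B73, SD, n = 2), with genotype as the only term. The standard error is the absolute log2 fold change over the square root of F. The codes were tested with genotype as a term. p-values were adjusted over the 3282 tested IDs. On simulated data with a log2 fold of 2, the fit between genotypes, run on 3072 IDs, recovered 125 of 185 changed IDs (67.6%) and called 6 unchanged ones. The simulation gave every ID the same dispersion, raised as many IDs as it lowered and held no effect of the code. The real libraries are less simple, so these numbers check that the fit runs and do not measure its error here. Alternatives were other scalings, filters, equal depth, a threshold of 0.01, DESeq2 1.42.0, the RPI code as a block and each library left out.

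IDs were named by a rule: the 10 most abundant, the 10 largest changes in each direction past the threshold, and those past the threshold between codes. The GRMZM IDs, the symbol lists and the tests were chosen with earlier results of these data known.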

Additional observations from a re-analysis of the deposited data

Results flagged for a closer look

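GRMZM5G881135 had a log2 ratio of hybrid over B73 of -0.0925 within RPI10 and 0.76 within RPI11 (CPM + 1, TMM scale), so the library pairs lay on opposite sides of 0. This difference between the codes was not tested. The ID had 176 and 75 counts in the hybrid, and 66 and 32 in B73.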

How the results depend on the processing

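Against 829 higher and 833 lower IDs in the whole table, library totals gave 482 and 1357, 10 counts in every library 220 and 181, equal depth 308 and 415, DESeq2 551 and 205, no filter 1353 higher, and a threshold of 0.01 546 lower. Leaving out each library in turn gave 600 to 850 higher and 454 to 815 lower. Among the GRMZM IDs, 13 of the 49 tested were higher and 13 lower. In the same order, with all tested IDs in brackets, a threshold of 0.01 gave 8 and 9 of 49 (558 and 546 of 3282). Library totals gave 4 and 26 of 49 (482 and 1357 of 3282), and equal depth 6 and 15 of 38 (308 and 415 of 1446). No filter gave 15 and 7 of 114 (1353 and 815 of 22374). With 10 counts in every library there were 10 and 7 of 34 (220 and 181 of 970). DESeq2 gave 14 and 4 of 54 (551 and 205 of 4156). Leaving out each library gave 6 to 14 higher and 6 to 14 lower. TMM factors computed without the GRMZM IDs gave 13 and 13, and the same IDs. Fewer IDs were tested under the stricter filter and at equal depth; the cause of the other differences was not tested.

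Adding the RPI code as a block (a replicate block) gave 15 higher and 19 lower GRMZM IDs, including all 26 calls, against 29.6% higher and 27.4% lower of all tested IDs. As in the test of the codes, the p-values of this model rest largely on a spread estimated across IDs. Of the named IDs, GRMZM5G866064, GRMZM5G855343 and GRMZM5G867512 gained a call (edgeR adjusted p = 7.50e-05, 0.000381 and 0.0301). Around the genotype means, libraries with the same code deviated together with a correlation of 0.265 over the tested IDs and 0.561 over the 49. With 2 codes of unstated meaning this is a hint from the data and not a pairing by design.

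Between codes, DESeq2 called 3 higher and 0 lower in RPI10, with 7 at an unadjusted p under 0.05. With genotype left out edgeR called 0 and 0, and 0 lay under an unadjusted p of 0.05, but genotype then adds to the spread.

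The GRMZM share without the 20 most abundant other IDs was 24.2% in the hybrid and 15.8% in B73, a difference of 8.42 points. Of all counts it was 8.10% and 5.42%, so those 20 IDs held most of the counts that the shares are set against. Without GRMZM5G815453 the GRMZM share was 2.77% and 2.16%, a difference of 0.617 points. With 2 libraries per genotype, leaving 1 out returns the share of the other. This was 7.58% or 8.62% in the hybrid and 5.07% or 5.77% in B73. The resulting differences of 2.16 to 3.20 points restate the library shares and are no separate check. With a minimum of 5 counts, 61 (RPI10) and 51 (RPI11) GRMZM IDs were seen in the hybrid, and 54 and 58 in B73. The share over all IDs at that minimum is not given. The filter of 10 counts in every library was added for the medians by abundance after seeing the data. Since 0 IDs have the prefix GRMZM2G, the alternatives by prefix were not run.

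Of 299 values of the named IDs in the alternatives, 229 had an unchanged direction and call, 54 lost the call and 12 gained it. Those that changed sign all belonged to GRMZM5G881135, whose log2 fold change of 0.21 became -0.53 with library totals, -0.50 at equal depth and -0.35 to 1.15 with a library left out (-0.17 without the RPI10 library of the hybrid, -0.35 without the RPI11 library of B73). Depth limits the scarce IDs: in the shallowest library 3 counts are the floor.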
